A study of Homo sapiens with 4 samples.

Results

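Peaks labelled as binding of HNF1 were described at 10 genes of lipid absorption and lipoprotein assembly in Caco2, a cell line from a human colorectal adenocarcinoma that resembles absorptive intestinal epithelium. The genes are APOA1, APOA4, APOA5, APOC3, APOB, MTTP, FABP1, FABP2, APOH and NPC1L1. Their peaks were those of the 2 deposited lists with a midpoint inside 7 hg19 windows, each a gene with flanks of about 50 kb, where 1 window holds the APOA5, APOA4, APOC3 and APOA1 cluster. The windows held 11 of the 5060 peaks of replicate 1, 6 of the 4955 peaks of replicate 2 and 6 of the 2905 regions found in both. The study made 4 libraries by chromatin immunoprecipitation and sequencing (ChIP-seq), namely 2 HNF1 immunoprecipitations and 2 inputs without antibody, all from Caco2 cells grown in low glucose medium with serum. Each immunoprecipitation gave 1 peak list, called against the input of the same number. Values of single lists therefore carry no SD, and agreement between the lists is the measure of repeatability. Separate cultures are not stated in the labels, so differences between the lists may be technical. The labels give HNF1 as the antibody target in one field and FOXA2 in the extraction text, and the HNF1 name is used here as the titles give it.

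HNF1 proteins are homeodomain transcription factors that bind as dimers to a palindrome of GTTAAT half-sites. They are known in liver, kidney, pancreas and intestine as activators of genes for transport and secretion. In the enterocyte, NPC1L1 takes up cholesterol at the brush border, and the fatty acid binding proteins FABP1 and FABP2 carry fatty acids inside the cell. MTTP loads lipid onto APOB to start a chylomicron, and APOA1, APOA4, APOA5 and APOC3 are proteins of chylomicrons and other lipoproteins. APOH, or beta-2-glycoprotein I, is a plasma protein that binds phospholipids.

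Promoter sequence is shown for the 3 single-gene loci that had a peak within 1 kb of the gene start edge and an entry in the RefSeq promoter table, and for the 2 loci that had no peak. The gene start edge is the end of a window, less its 50 kb flank, where transcription of the gene begins. It is set to whole kb by the window rule, so it is an approximate start. Distances under 1 kb therefore do not show on which side of the annotated start a peak lies. The sequences come from RefSeq with build GRCh38.p14 and run 5′ to 3′ on the gene's strand over the 250 bases before the annotated start. Their positions cannot be laid over the hg19 peaks. Capitals mark the closest matches within a promoter to the 13-letter HNF1 palindrome, which is GTTAAT, 1 free base and the complement ATTAAC, where at most 3 of its 12 fixed letters differ, and every exact GTTAAT or ATTAAC. They lie at chr2:88128063-88128312 (minus strand) for FABP1, chr17:66229416-66229665 (minus strand) for APOH, chr7:44541331-44541580 (minus strand) for NPC1L1, chr4:99574574-99574823 (plus strand) for MTTP and chr4:119322139-119322388 (minus strand) for FABP2. Of the 2 MTTP promoters in the table, the second, which starts further along the gene, is shown because it holds the closer match.
FABP1: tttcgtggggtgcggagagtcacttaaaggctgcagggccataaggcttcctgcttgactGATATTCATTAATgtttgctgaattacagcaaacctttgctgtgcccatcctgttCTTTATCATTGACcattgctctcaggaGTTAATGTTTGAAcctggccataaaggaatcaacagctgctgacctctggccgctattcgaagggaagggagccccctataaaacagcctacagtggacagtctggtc
APOH: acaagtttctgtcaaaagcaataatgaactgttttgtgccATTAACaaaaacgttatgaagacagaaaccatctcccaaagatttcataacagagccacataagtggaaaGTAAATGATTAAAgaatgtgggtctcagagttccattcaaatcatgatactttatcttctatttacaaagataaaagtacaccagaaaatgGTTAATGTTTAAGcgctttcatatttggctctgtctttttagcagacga
NPC1L1: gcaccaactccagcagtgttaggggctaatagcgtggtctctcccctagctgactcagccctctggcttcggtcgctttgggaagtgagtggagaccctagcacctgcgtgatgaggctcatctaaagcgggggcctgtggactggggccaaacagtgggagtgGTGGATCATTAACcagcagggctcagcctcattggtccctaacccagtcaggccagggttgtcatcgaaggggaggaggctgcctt
MTTP: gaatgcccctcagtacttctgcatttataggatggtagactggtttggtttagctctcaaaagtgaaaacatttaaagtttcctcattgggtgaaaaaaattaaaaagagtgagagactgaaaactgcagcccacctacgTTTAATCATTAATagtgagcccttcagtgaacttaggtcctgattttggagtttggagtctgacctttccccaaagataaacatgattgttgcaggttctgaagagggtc
FABP2: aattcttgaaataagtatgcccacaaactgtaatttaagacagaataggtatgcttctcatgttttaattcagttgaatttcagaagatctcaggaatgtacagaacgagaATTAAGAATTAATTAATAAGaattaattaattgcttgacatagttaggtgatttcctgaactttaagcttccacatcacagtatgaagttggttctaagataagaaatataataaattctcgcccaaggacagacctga

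FABP1, the liver-type fatty acid binding protein of liver and small intestine, had the highest scored peak and the most shared sites of these loci. Its window on chromosome 2 from 88372 to 88478 kb held 3 peaks of either list, and all of them were shared. The score of a peak is its tag count scaled to 10000000 tags per library, as the authors deposited it. The first site lay at 88427551 to 88427777, 0.348 kb inside the gene start edge by the midpoint of replicate 1. It scored 45 in replicate 1 (95% Poisson interval 34.0 to 59.1) and 36 in replicate 2 (27.6 to 45.5). These were ranks 150 and 122 of their lists, so the site stood within the top 3.12% of the peaks of replicate 1 and the top 2.83% of those of replicate 2. The intervals cover only the counting error of 1 library and no variation between libraries. Tags also carry no molecular identifiers, so copies of 1 molecule cannot be told apart.

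The other 2 FABP1 sites lay upstream of the gene, on the side where THNSL2 is the next protein-coding gene in RefSeq. The site at 88431063 to 88431301, about 3.23 kb upstream, scored 13 in replicate 1 (7.66 to 21.8) and 14 in replicate 2 (9.20 to 20.6). The site at 88438837 to 88439063, about 10.95 kb upstream, scored 23 in replicate 1 (14.9 to 32.9) and 23 in replicate 2 (16.4 to 30.7). In both lists the site at the gene start scored highest, the one farthest upstream came next and the one between them lowest. The interval of the first site did not overlap that of the middle site in either list. It lay apart from the interval of the farthest site in replicate 1, but overlapped it in replicate 2. Gaps of 3285 and 7535 bp separated the 3 regions. Cut into tiles of the same 106 kb, the chromosomes held 3 shared regions or more in 0.234% of 29080 tiles. The tiles run from the first base of each chromosome to its last peak and include assembly gaps and sequence without genes, so this is a description of the background and not a test.

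At APOH, on chromosome 17 from 64158 to 64276 kb, both lists had 2 peaks and both sites were shared. The site at the gene start, from 64225463 to 64225758, scored 23 in replicate 1 (14.9 to 32.9) and 24 in replicate 2 (17.3 to 32.0). Its midpoint lay 0.466 kb inside the gene start edge in replicate 1 and 0.355 kb inside it in replicate 2. Both distances are smaller than the whole kb to which the edge is set, so the side of the start is not resolved. The midpoints were 111 bp apart and the peaks overlapped by 74 bp, the least of the 6 shared pairs. A second site at 64246841 to 64247067, about 20.97 kb upstream toward PRKCA, scored 11 in replicate 1 (5.80 to 18.6) and 11 in replicate 2 (6.61 to 16.7). These scores were close to the medians of the whole lists, 12 in replicate 1 and 11 in replicate 2. The site at the start scored higher than the distant one in both lists. The intervals of the 2 sites overlapped in replicate 1 and did not in replicate 2. Of the tiles of 118 kb, 1.43% held 2 shared regions or more.

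APOB, the structural protein of chylomicrons, had 1 weak shared site. Its window on chromosome 2 from 21174 to 21317 kb held 3 replicate 1 peaks and 1 replicate 2 peak. The site found in both lay about 12.4 kb upstream of the gene at 21279295 to 21279521, and scored 7 in replicate 1 (2.89 to 13.2) and 9 in replicate 2 (5.36 to 14.7). Both values were below the median of their list. The score of 7 corresponds to 8 tags, under the limit of 9 tags per peak that the file header of replicate 1 gives. Replicate 1 also had a peak of score 8 at 21265944 to 21266086, 0.985 kb inside the gene start edge, and 1 of score 8 at 21315344 to 21315486, 48.4 kb upstream. Neither of these had a partner, and the nearest peaks of replicate 2 were 13.4 and 36.0 kb away. The shared site is thus not the one at the gene start. Of the tiles of 143 kb, 11.0% held at least 1 shared region.

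The apolipoprotein cluster on chromosome 11 and the NPC1L1 locus had peaks in replicate 1 alone. In the cluster, from 116610 to 116758 kb, replicate 1 had a peak of score 8 at 116708375 to 116708517, 0.446 kb upstream of the edge where APOA1 starts. A second peak, of score 9, lay at 116699709 to 116699851 inside the cluster, 8.22 kb from that edge. Its place relative to APOA4 and APOC3 was not worked out, since no hg19 annotation was used here. The window held no peak of replicate 2, whose nearest peak was 235.45 kb from the APOA1 edge. In the NPC1L1 window, on chromosome 7 from 44502 to 44631 kb, the 1 peak of replicate 1 lay at 44580940 to 44581082, with its midpoint 0.011 kb from the gene start edge, and scored 8. The nearest peak of replicate 2 was 1011 kb away. The 3 peaks had intervals of 4.02 to 15.4 for a score of 8 and 4.60 to 16.5 for a score of 9. Peaks at these genes were therefore called in 1 library only, and the reads of replicate 2 were not examined.

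No peak of either list lay in the window of MTTP, the lipid transfer protein, on chromosome 4 from 100435 to 100595 kb, or in that of FABP2, the intestinal fatty acid binding protein, on chromosome 4 from 120188 to 120294 kb. From the MTTP start edge the nearest peak was 160.1 kb upstream in both lists, with scores of 9 and 10. From that of FABP2 the nearest peak lay 110.9 kb away in replicate 1, with a score of 12, and 241.7 kb away in replicate 2, with a score of 9. The absence of a called peak does not show the absence of binding, because the file headers set several limits. They ask for 9 tags in replicate 1 or 13 tags in replicate 2. They also ask for 4-fold more tags than in the input, at a Poisson p-value of 0.0001, and than in the local 10000 bp. The input filter removed 1161 of 6297 putative peaks in replicate 1 and 3094 of 8280 in replicate 2. The tag limits equal scores of 7.54 and 7.04, which round to 8 and 7. The deposited scores do not keep to them as a floor, since the lowest score in both lists was 6. In replicate 1, 258 peaks scored 6 or 7, below the limit. In replicate 2, 500 peaks scored 6 or 7, but those of score 7 may lie at the limit itself. Replicate 2 peaks of score 6 were not counted apart. Of the 2 paralogs, FABP1 had 3 shared sites and FABP2 none, as was also so for the apolipoprotein cluster, NPC1L1 and MTTP. Of the tiles of 106 kb, the length of both paralog windows, 8.48% held a shared region.

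**Figure D1:**
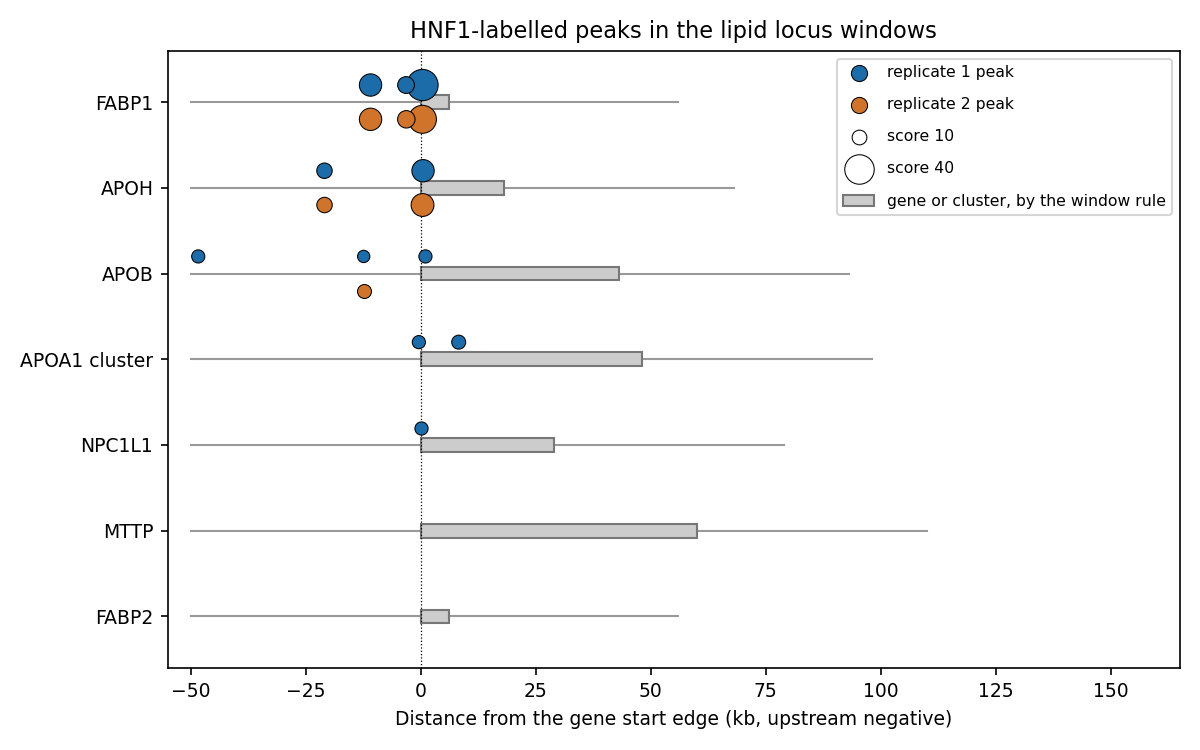
Peaks of the 7 windows by distance of their midpoint from the gene start edge (x axis, kb, upstream negative), with replicate 1 above and replicate 2 below each line and the area of a point in proportion to its score. Grey bars span the gene or cluster as the window rule gives it. Peaks of both replicates coincide at FABP1, APOH and 1 APOB site, and MTTP and FABP2 have none.

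Across the loci, 5 of the 7 windows held a replicate 1 peak and 3 held a replicate 2 peak, and the 3 with a shared region were FABP1, APOH and APOB. Tiles of the median window length, 129 kb, held a shared region in 10.1% of 23899 cases. The share of tiles with a peak of a single list was not counted. The 5 windows of replicate 1 and 3 of replicate 2 thus have no background here. In density, the 910 kb of windows held 12.1 peaks per Mb in replicate 1, 6.59 in replicate 2 and 6.59 shared regions per Mb. The whole lists had 1.64, 1.61 and 0.943 per Mb. Of the 6 shared regions, 3 lay in the FABP1 window, and the windows of the apolipoprotein cluster, NPC1L1, MTTP and FABP2 held none. The windows were drawn around genes, while the whole lists also cover sequence far from genes. Besides, the windows were chosen with earlier results of these data known. The difference in density was not tested, and no enrichment follows from it.

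Except for 1 peak inside the apolipoprotein cluster, the peaks lay near or upstream of the gene start edges. In replicate 1, 5 peaks lay within 1 kb of a gene start edge, 1 each at FABP1, APOH, APOB, APOA1 and NPC1L1. Each window had 1 edge, that of APOA1 for the cluster, so the starts of APOA4, APOA5 and APOC3 were not counted. The limit of 1 kb is no wider than the whole kb to which the edges are set. In replicate 2 it was 2 peaks, at FABP1 and APOH. Of all 2 kb tiles along the chromosomes, 0.323% held a replicate 1 peak and 0.319% a replicate 2 peak. How often other gene starts hold a peak was not analysed here, so no preference for these genes follows from the count. The remaining replicate 1 peaks were upstream, apart from the one inside the apolipoprotein cluster. Its place relative to the other gene starts of the cluster was not worked out. No peak lay in a 3′ flank of any window, with the cluster read by the strand of APOA1.

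Shared sites mostly scored higher than unshared ones in replicate 1. The 6 shared peaks scored 45, 23, 23, 13, 11 and 7 and the 5 unshared ones 9, 8, 8, 8 and 8, so that the 2 sets overlapped only through the APOB site of score 7. Over the whole lists, 57.5% of replicate 1 peaks and 58.6% of replicate 2 peaks had a partner, against 6 of 11 and 6 of 6 here. When split at a score of 10, a value chosen after seeing the data, 5 of 5 member peaks of replicate 1 above it had a partner, where 74.5% of all such peaks did. Of the 6 at or below it 1 had a partner, where 33.1% of all such peaks did. In replicate 2 the counts were 5 of 5 above a score of 10, where 77.2% of all such peaks had a partner, and 1 of 1 at or below it, where 36.3% did. Among all replicate 1 peaks of score 8, 28.4% had a partner (Wilson 95% interval 25.8% to 31.3%), and none of the 4 in these windows did. With so few peaks these counts do not set the loci apart from other peaks of like score.

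**Figure D2:**
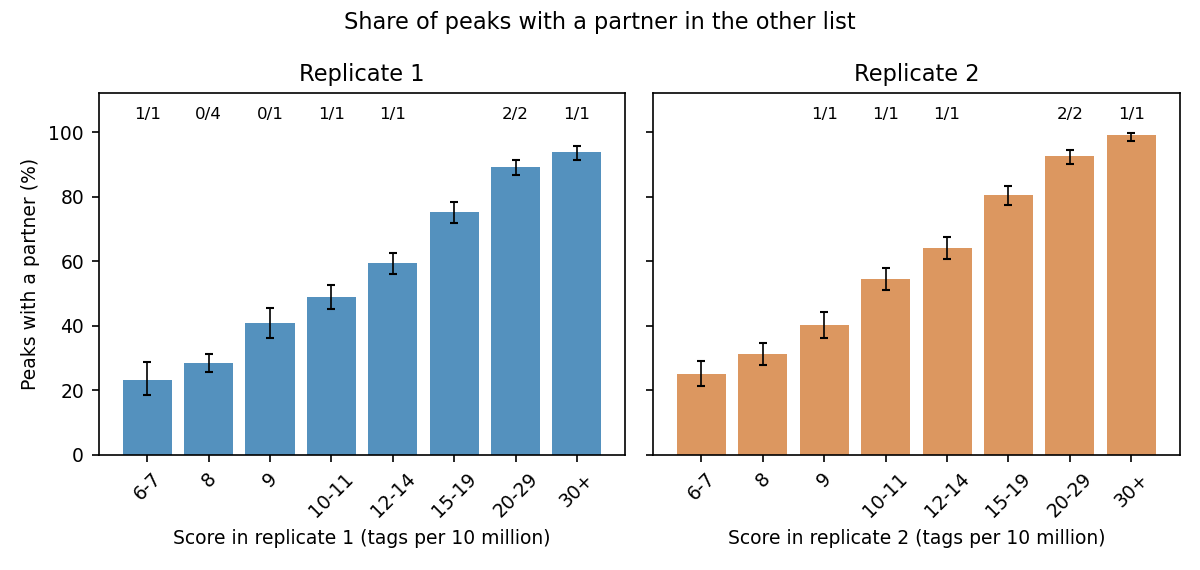
Share of all peaks with a partner in the other list (y axis, percent) by score (x axis, tags per 10000000) in replicate 1 on the left and replicate 2 on the right. Bars carry Wilson 95% intervals, and the numbers above them count the lipid locus peaks with a partner over all such peaks of that score. In replicate 1 the share is 28.4% at a score of 8, where none of the 4 lipid locus peaks has a partner.

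Between the libraries the shared sites had like scores, but sites called in 1 list only are left out of this comparison. The log2 ratio of replicate 1 over replicate 2 ranged from -0.36 at APOB to 0.32 at the FABP1 start. Its median was -0.03 over the 6 pairs. Over all 2907 pairs, which were likewise called in both lists, it ranged from -1.77 to 2.17 with a median of 0.17. With each score divided by the median of its list, the median of the 6 pairs was -0.16. Intervals of the 2 libraries overlapped in all 6 pairs. Midpoints of partners were 2 to 111 bp apart, with a median of 22.5 bp, beside 27 bp over all pairs. The tag windows were 142 and 226 bp wide, so a ratio of scores is not a ratio of occupancy.

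**Figure D3:**
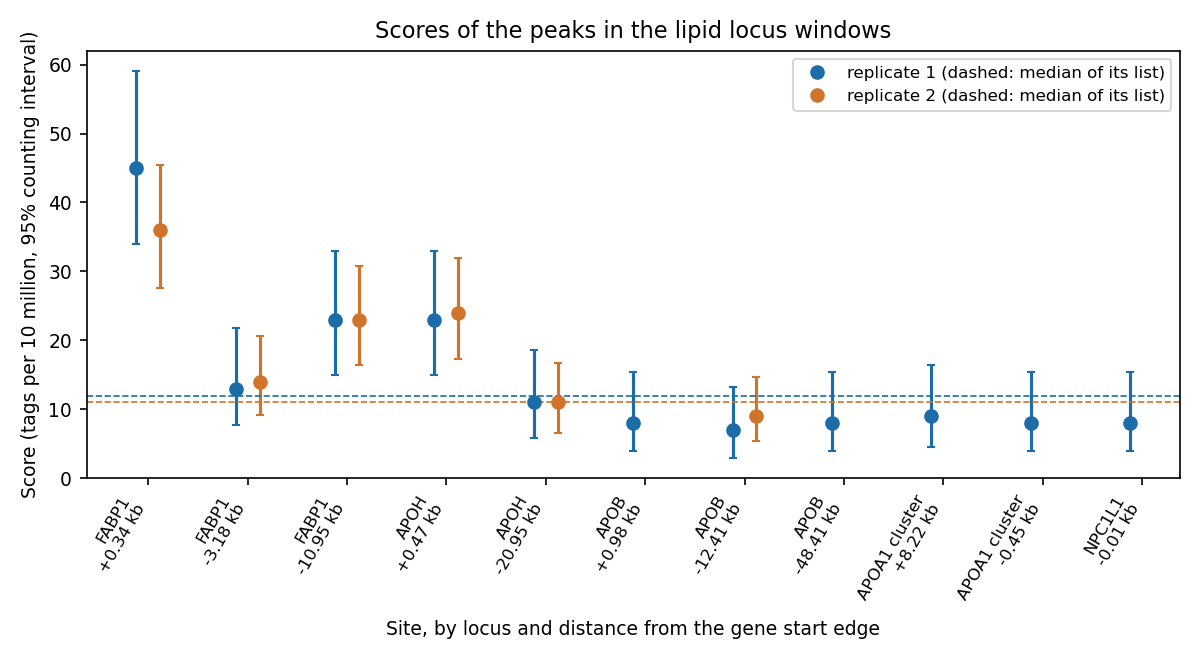
Score (y axis, tags per 10000000, with 95% Poisson intervals) of each site in the windows, named by locus and distance from the gene start edge (x axis). Points are single libraries and dashed lines mark the list medians of 12 and 11. The FABP1 start site is highest at 45 and 36, and the sites found in replicate 1 alone lie at 8 or 9.

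The sequences of the promoters were then described beside the peaks. Of the 10 genes, 7 had an entry in the RefSeq promoter table, with 9 promoters of 300 bases (250 before to 50 after the start), and APOA1, APOB and APOC3 had none. The half-site GTTAAT, searched on both strands, stood in 4 of the 9, namely those of FABP1, APOH, NPC1L1 and 1 of APOA5, beside 6.88% of all 35116 promoters. Shares over all promoters, for this and every other motif searched, were not matched for base composition. The exact palindrome, which contains the half-site on both arms, stood in none of the 9 and in 0.00570% of all. With up to 2 letters differing, it matched APOH, NPC1L1 and the second MTTP promoter, beside 1.31% of all promoters. In APOH the matches were GTAAATGATTAAA, from 140 to 128 bases before the start, and GTTAATGTTTAAG, from 49 to 37 bases before it. In NPC1L1 it was GTGGATCATTAAC, from 86 to 74 bases before the start, and in MTTP TTTAATCATTAAT, from 110 to 98 bases before it. FABP1, which had the highest scored site, had 3 matches that differed in 3 letters, of which GTTAATGTTTGAA from 108 to 96 bases before the start contains an exact half-site. At 3 letters FABP2 and APOA5 also matched, beside 7.56% of all promoters. The second MTTP promoter had a closer match than FABP1, the first differed in at least 5 letters, and the MTTP window had no peak. NPC1L1 had a match as close as those of APOH with 1 peak of score 8 in 1 list. These are descriptions only. Whether the letters follow the peaks was not tested, since these promoters cannot be laid over the hg19 peaks.

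Motifs of other factors were searched in the same 9 promoters, also on both strands. For FOXA factors, the antibody target named in the extraction text, TGTTTAC stood in none and in 3.42% of all promoters. TATTTAC stood in 2 of the 9, those of APOH and 1 of APOA5, and in 2.67% of all. The HNF4A motif CAAAGTCCA stood in none and in 0.384% of all, and TATAAA, the letters of the TATA box, in 3 of the 9 and in 11.5% of all. These were the FABP1 promoter, from 31 to 26 bases before the start, the second MTTP promoter, from 227 to 222 bases before it on the other strand, and 1 of APOA5, across the start itself. A match describes letters in a window and not a bound site. The sequence under the hg19 peaks themselves was not used here.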

How the data were processed

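ChIP-seq peaks of 2 HNF1 immunoprecipitations of Caco2 cells were used as deposited. The submitters' processing notes name hg19, Bowtie 1.0.0 and HOMER 1.2 without their roles. Per the file headers, HOMER findPeaks in factor mode called each library on its own against its input, from 11931439 and 18469659 tags, at a false discovery rate of 0.001. The score that the authors deposited per peak is a tag count scaled to 10000000 tags and rounded, and 1 tag is worth 0.838 in replicate 1 and 0.541 in replicate 2. Peak sizes of 142 and 226 bp and limits of 9 and 13 tags differed between the lists, so an equal density could pass in only 1 of them.

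From these lists, peaks were placed in the windows by midpoint and called shared when they overlapped by at least 1 bp. Positions count from 1. Poisson 95% intervals came from the score divided by the value of 1 tag and rounded to whole tags. Since scores are rounded, a score can stand for more than 1 tag count, so the intervals are approximate. Tiles were counted over shared regions. With 1 list per library no test was run. All 10 genes are named, and the genes, windows and lists were chosen with earlier results of these data known. Further lipid pathway genes were planned for the case of an hg19 annotation and are not analysed here. Neighbouring genes and promoters came from RefSeq GRCh38.p14, and the strands of APOB and APOA1 from general knowledge. Overlap, placement and motif counting were tested on simulated data. Python 3.11.15, numpy 2.4.6, pandas 2.3.3, scipy 1.17.1 and matplotlib 3.10.9 were used.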

Additional observations from a re-analysis of the deposited data

How the results depend on the processing

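The number of shared regions in the windows was 6 as reported and 4 to 6 under the other settings. It was 5 when 50% of both peaks had to overlap, which leaves out the APOH start site with its 74 bp of overlap, 5 when only replicate 1 peaks scored above 10 counted, and 4 in the better scored 50% of both lists. Replicate 1 peaks in the windows fell from 11 to 4 in the better scored 50% of the list, and 5 lay within 1 kb of a gene start edge. Replicate 2 peaks went from 6 to 4 and 2. The better scored 50% of replicate 2 ended among peaks tied at a score of 11. The upstream APOH peak, also of score 11, was left out there by list order and not by score. Tiles with a shared region went from 10.1% to 9% when 50% of both peaks had to overlap. The median log2 score ratio of the 6 shared pairs went from -0.03 to -0.16 with scores divided by the median of their list. Promoters with the HNF1 palindrome went from 0 of 9 with up to 1 differing letter to 3 with up to 2 and 6 with up to 3. The split at a score of 10, the 1 kb limit and the searches with 2 or 3 differing letters were chosen after seeing the data. No paired analysis was possible because no input values are at hand beyond their use in the calling. Leaving out a replicate leaves no shared region to count. At 10 or 11 tags per peak by their rounded scores, the sites found in replicate 1 alone lie near the 9 tags that the header names. Those 9 tags equal a score of 7.54, which also rounds to 8, so the sites of score 8 may lie at the limit itself. The lists give no reads to examine these sites in replicate 2.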
